A study of Mus musculus with 22 samples.

Results

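The 10 imprinted genes described here are *H19*, *Igf2*, *Peg3*, *Mest*, *Dlk1*, *Meg3*, *Cdkn1c*, *Plagl1*, *Grb10* and *Peg10*, taken by name from the 37991 genes of the expression files. Their DNA methylation was read within 1 kb of the annotated gene start and in 1 kb tiles of a fixed genome grid reaching 10 kb upstream. Of 120 such tiles, 90 held at least 5 CpGs with at least 6 reads in each library and could be tested, against 1001234 in the whole genome. The other 30 were not tested.

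Imprinted genes are transcribed mainly from the allele inherited from the mother or mainly from that of the father. The choice is set by control regions that are methylated on a single parental allele, so bulk DNA reads as intermediate methylation there in every tissue. Many of these genes govern fetal growth, and fetal liver expresses several of them strongly.

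The study asked how loss of Rlf, a zinc finger protein, alters DNA methylation across the mouse genome. Whole genome bisulphite sequencing covered the embryo at E10.5 and the liver at E14.5 and at E18.5, each in 2 wild-type and 2 mutant samples, and RNA-seq covered the E14.5 liver of 3 wild types and 3 mutants. Mutants were homozygous for *MommeD28* (MommeD28/MommeD28), a null allele of *Rlf* induced by ENU mutagenesis, and wild types were *Rlf*+/+. All mice were Line3 FVB/NJ and homozygous for an array of a multicopy GFP transgene driven by the human alpha-globin promoter and HS-40 enhancer. The E10.5 embryos were labelled male and the E18.5 livers female. Of the E14.5 bisulphite livers, replicate 1 of each genotype was male and replicate 2 female, and of the RNA-seq livers, replicates 1 and 2 were male and replicate 3 female. The 4 E14.5 bisulphite livers came from littermates. For the other samples the sources used here do not state separate litters, so p-values measure only the spread between these samples.

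Each CpG was read on average 16.8 to 18.97 times in the embryo libraries, 31.4 to 35.4 times in E14.5 liver and 17.6 to 18.3 times in E18.5 liver, and RNA-seq libraries held 12928313 to 14621004 counts. Over all CpGs, the wild-type embryos were 70.7 and 72.0% methylated and the mutants 73.3 and 74.0%, and the E14.5 livers were 56.4 and 58.5% against 60.3 and 59.2%. At E18.5 mutant replicate 1 stood apart at 65.5%, with mutant replicate 2 at 61.4% and the wild types at 61.4 and 61.7%. The part of these overall levels in the differences given below was not tested. *Rlf* transcripts ranged from 68.5 to 72.1 CPM, counts scaled to library size, in wild-type livers and from 67.3 to 79.9 CPM in mutants (edgeR adjusted p = 0.646), so RNA level does not separate the genotypes of this mutagen-induced allele. The livers carried the transcripts of hepatoblasts, with 8 markers summing to 53290 to 76750 CPM, led by *Afp* and *Alb*.

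At these genes 14 of 90 tiles (15.6%) lay between 35 and 65% methylation in each of the 12 libraries, against 13094 of 1001234 tiles (1.31%) in the genome. *H19* held 5 of them, *Peg10* 3, *Peg3* 2, *Meg3* 2, *Plagl1* 1 and *Cdkn1c* 1. No tile of the upstream windows of *Igf2*, *Mest*, *Dlk1* or *Grb10* qualified. The tiles hold 8 to 65 covered CpGs, each read on average 14.4 to 68.6 times per library. Their median was 24 covered CpGs, against 8 for all tiles, and the share in the genome was not matched for CpG number.

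*H19*, which encodes a maternally expressed long non-coding RNA, lies at chr7:149761434-149764048 on the minus strand of mm9. Its 5 intermediate tiles run without a break from chr7:149763001 to chr7:149768000, from the first exon into intergenic DNA upstream. That stretch takes in the known control region of the *H19* and *Igf2* pair, where the insulator protein CTCF binds the unmethylated maternal copy and the paternal copy is methylated. The tile at chr7:149766001-149767000, centred at -2453 bp from the start, read 52.6 and 45.5% in wild-type embryos and 56.6 and 49.7% in mutant embryos. In E14.5 liver it read 41.9 and 42.7% against 43.9 and 39.8%, and in E18.5 liver 42.1 and 39.0% against 46.6 and 40.6%. In that tile wild types and mutants overlapped in every tissue. The window within 1 kb of the *H19* start read 43.7 and 52.1% in wild-type embryos and 55.3 and 59.2% in mutants. In E14.5 liver it read 40.5 and 45.0% against 43.2 and 42.9%, and in E18.5 liver 46.7 and 48.6% against 49.0 and 51.3%. Mutants were higher without overlap in embryos and E18.5 liver. The difference was 9.34 points in embryos (edgeR adjusted p = 0.305) and 4.05 over the 3 tissues (edgeR adjusted p = 0.294).

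A search of both strands for the CTCF motif of this control region, 14 letters with any base allowed at the sixth and the ninth, found 3 matches, all in *H19* tiles of intermediate methylation. They are shown because these letters mark the insulator. Stretches off the pattern by a single letter were not counted, such as that on the minus strand within chr7:149767693-149767722. The matches therefore need not be all the CTCF sites of the region. The pattern was taken from this control region, so matches there follow from its choice and the shares below do not measure an enrichment. Of all tested tiles 56 (0.00559%) held a match, and of the 41311 tiles with at least 24 covered CpGs 0.102% did. The capitals mark the motif in 30 bases of mm9, read 5′ to 3′ on the minus strand.
H19 site 1, chr7:149766206-149766235: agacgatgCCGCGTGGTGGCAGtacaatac
H19 site 2, chr7:149766661-149766690: ggatgctaCCGCGCGGTGGCAGcatactcc
H19 site 3, chr7:149767931-149767960: gggagttgCCGCGTGGTGGCAGcaaaatcg

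The CpGs inside site 1 were 56.2 and 45.8% methylated in wild-type embryos and 64.9 and 47.8% in mutants. In E14.5 liver they read 40.5 and 42.9% against 41.0 and 39.9%, and in E18.5 liver 35.5 and 36.0% against 39.3 and 35.8%. The groups overlapped in all tissues. Site 2 ranged from 25 to 66.1% on 28 to 128 reads and site 3 from 28.8 to 76.9% on 16 to 88 reads, so single sites were read far less precisely than the tiles that hold them. At site 2 the mutants lay above the wild types in E18.5 liver, at 47.2 and 50% against 25 and 27.5%, and in E14.5 liver, at 48.4 and 49.5% against 35.2 and 45.2%, while the E10.5 mutants read 44.4 and 25% against 66.1 and 43.3%. At site 3 the E18.5 mutants lay below the wild types, at 65.4 and 50% against 68.8 and 76.9%, and the other tissues overlapped. No test was made of single sites.

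**Figure D1:**
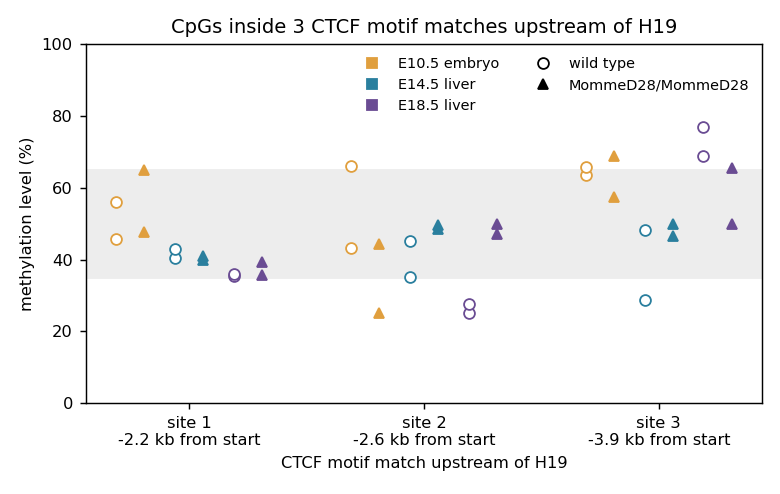
Methylation level (%, vertical axis) of the CpGs inside the 3 CTCF motif matches upstream of H19 (horizontal axis), 1 point per library, circles for wild type and triangles for MommeD28/MommeD28, with colour for tissue and a grey band from 35 to 65%. Site 1 lies between 35.5 and 64.9% in all 12 libraries, and sites 2 and 3 spread more widely.

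*Peg10*, a retrotransposon-derived gene expressed from the paternal allele, starts at chr6:4697306, facing *Sgce*, a paternally expressed sarcoglycan gene that starts at chr6:4697204 on the other strand. Of the 14 tiles, 3 consecutive ones span this shared start from chr6:4696001 to chr6:4699000. The central tile, with 65 CpGs, read 48.9 and 56.0% in wild-type embryos, 49.4 and 51.2% in mutant embryos, 35.9 and 39.3% against 43.6 and 42.8% in E14.5 liver, and 41.3 and 50.7% against 48.5 and 48.3% in E18.5 liver. In E14.5 liver both mutants were above both wild types, and in the other tissues the genotypes overlapped.

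*Peg3*, a paternally expressed zinc finger gene, had intermediate tiles at chr7:6683001-6684000, over its first exon, and at chr7:6685001-6686000 upstream. The first read 51.9 and 50.9% in wild-type embryos and 50.4 and 47.6% in mutants, 39.0 and 43.5% against 44.7 and 44.3% in E14.5 liver, and 46.7 and 42.4% against 47.0 and 41.0% in E18.5 liver. *Plagl1*, a paternally expressed zinc finger gene, had 1 such tile, at chr10:12811001-12812000 just inside the gene. Its embryos read 47.0 and 45.2% in the wild type and 59.4 and 59.9% in the mutant. That difference of 13.5 percentage points missed the threshold (adjusted p = 0.0934). Its E18.5 livers read 46.4 and 39.6% against 48.4 and 36.4%. Over the 3 tissues, E14.5 liver included, the difference was 5.80 points (edgeR adjusted p = 0.177).

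*Meg3*, a maternally expressed long non-coding RNA, shares a domain with *Dlk1*, which is expressed from the paternal allele. The 2 intermediate tiles of *Meg3* adjoin, and the second holds its start at chr12:110779211. The upstream one read 59.5 and 55.0% in wild-type embryos and 62.3 and 60% in mutants, 46.6 and 44.9% against 51.8 and 53.1% in E14.5 liver, and 51.8 and 49.7% against 62.4 and 52.1% in E18.5 liver. The mutants lay above the wild types in each tissue, by 5.70 points over the 3 tissues (adjusted p = 0.170). The tile over the start read 53.1 and 51.1% against 57.4 and 53.2% in embryos, 43.2 and 47.0% against 47.6 and 44.3% in E14.5 liver, and 49.0 and 53.4% against 48.8 and 44.5% in E18.5 liver, a difference of -0.16 points (adjusted p = 0.986). *Cdkn1c*, a maternally expressed inhibitor of cyclin-dependent kinases, had an intermediate tile far upstream, at chr7:150656001-150657000, where the mutants differed by -4.12 points over the 3 tissues (adjusted p = 0.371).

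None of the 14 tiles passed the genotype test over the 3 tissues together (edgeR, 4 with an unadjusted p under 0.05, where 15.7% of all tiles had one, no other tool run), in which 2.01% of all tiles did (1.97% higher and 0.0446% lower). Differences ran from -4.12 to 5.80 points and were positive in 10 tiles. The median replicate SD was 3.08 points in embryos, 1.36 in E14.5 liver and 2.62 in E18.5 liver. A missed threshold does not show equal methylation, and a tile had to stay within 35 to 65% in the mutants too in order to be counted. When only the 6 wild-type libraries chose the tiles, 21 qualified and 2 of them (9.52%) passed, at *Dlk1* and *Peg10*, beside 7.67% of the 26810 tiles chosen this way in the genome. That choice was added after seeing the data.

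The same 14 tiles differed by tissue. All 14 were lower in E14.5 liver than in the E10.5 embryo, with changes of -19.5 to -6.96 points, where 89% of all tiles were also lower. The median change was -9.96 points, against -5.47 for all tiles of the genome that were likewise intermediate in every library and -17.4 for all tiles. Tiles chosen to stay within 35 to 65% in both tissues could change only so far. From E14.5 to E18.5 liver, 2 of the 14 passed, both at *Peg10* and both higher, where 36.8% of all tiles were higher. Stage and tissue cannot be told apart between the embryos and the E14.5 livers. The embryos were male, the E18.5 livers female and the E14.5 livers of both sexes, and the part of sex in these changes was not tested.

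Tiles just outside the limits show how sharp they were. In 6 tiles a single library lay beyond 35 to 65% and in 6 others a pair did. The *Plagl1* tile over the gene start ranged from 34.9 to 48.9%, and the *Peg3* tile inside the gene from 31.8 to 56.1%.

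A second motif was searched on both strands, TGCCGC, which ZFP57 recognises when methylated. ZFP57 is the zinc finger protein that keeps methylation on imprinted alleles in the early embryo. It occurred in 6 of the 14 intermediate tiles (42.9%) and in 16 of the 90 (17.8%), beside 10.6% of all tiles and 39.9% of all tiles with at least 24 covered CpGs, so CpG-rich tiles held it about as often. *H19* tiles held 6 matches, of which 2 overlap CTCF sites 1 and 3, *Peg10* tiles 3, *Plagl1* 2 and *Meg3* 1. Examples from tiles of 2 genes are shown on the plus strand of mm9, with the motif in capitals.
Plagl1, chr10:12811006-12811035: aatgggcactcgTGCCGCgctagctttcac
Peg10, chr6:4697912-4697941: tgcactcttaagTGCCGCgctacgaacgga

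*Mest*, a paternally expressed gene of the alpha/beta hydrolase family, showed intermediate methylation inside the gene and not upstream of its annotated start. Its record begins at chr6:30673547, and 4 intronic tiles between chr6:30685001 and chr6:30690000, around another annotated start, lay between 35 and 65% in all libraries. The tile at chr6:30687001-30688000 read 44.9 and 55.9% in wild-type embryos and 52.6 and 51.5% in mutants, 41.9 and 40.6% against 45.2 and 38.4% in E14.5 liver, and 46.0 and 42.9% against 51.5 and 48.5% in E18.5 liver. It held 5 ZFP57 matches. The window around the gene start itself was more methylated, at 67.8 to 78.9% over the libraries.

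Methylation within 1 kb of the gene start set the genes apart from each other. Of 10 windows, 4 (40%) lay between 35 and 65% in all 12 libraries, against 432 of 31242 gene starts (1.38%). These were *Peg10*, *H19*, *Meg3* and *Plagl1*, and the *Peg3* window missed the limit by 1 library, at 34.9%. *Igf2*, the paternally expressed fetal growth factor, was high at its annotated start, at 59.4 to 89.4%, and 0.159 to 3.40% at 4 starts further inside the gene. At another start, 9320 bp inside, it read 18.1 to 36.5%. *Dlk1*, which encodes a transmembrane relative of the Notch ligands, was nearly unmethylated, at 2.23 to 4.95%.

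**Figure D2:**
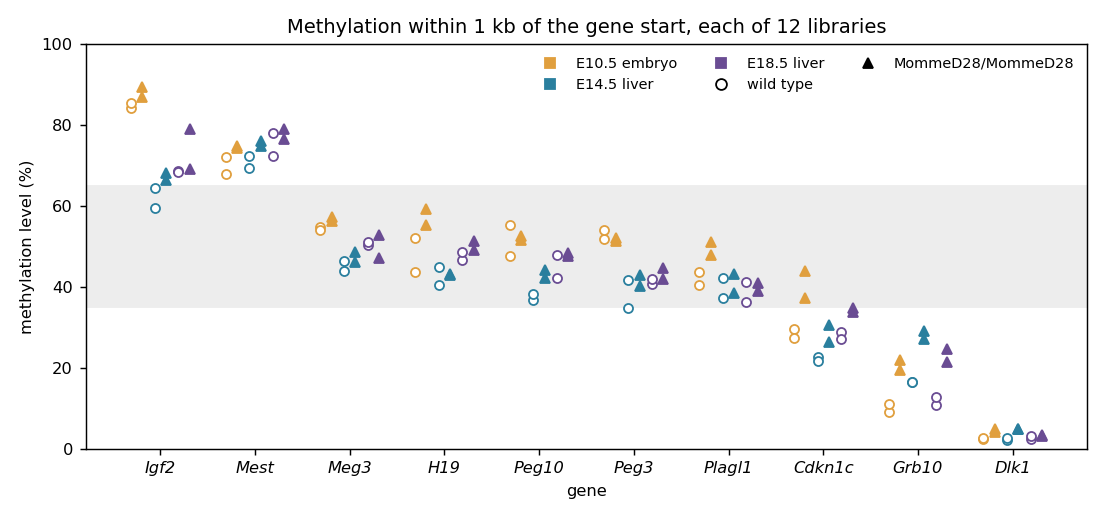
Methylation level (%, vertical axis) within 1 kb of the annotated start of each of the 10 genes (horizontal axis), 1 point per library, circles for wild type and triangles for MommeD28/MommeD28, with colour for tissue and a grey band from 35 to 65%. Peg10, H19, Meg3 and Plagl1 stay inside the band, and at Grb10, Cdkn1c, Dlk1 and Igf2 the triangles lie above the circles in every tissue.

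The genotype was compared at the 10 starts in each tissue. In E10.5 embryos 1 of 10 windows rose in the mutant (1.05% of all windows rose), in E14.5 liver 0 of 10 did (0.0351%) and in E18.5 liver 1 of 10 did (0.386%). With the 3 tissues together 3 of 10 rose (3.79%), namely *Grb10*, *Cdkn1c* and *Dlk1*, and none fell (0.0857%). At 31 other annotated starts of these genes 11 rose over the tissues together (3.79% of all windows), among them starts inside *Igf2*, and none fell. The 11 rose by 0.608 to 15.4 points. The called starts inside *Igf2* rose by only 0.608 to 0.802 points, from wild-type readings of 0.159 to 2.19%. In embryos 7 of the 31 rose (1.05%), in E14.5 liver 0 (0.0351%) and in E18.5 liver 1 (0.386%). Some of these windows overlap. At E14.5 the windows with an unadjusted p under 0.05 were 3 of 10, where 9.86% of all windows had one, the same *Grb10*, *Cdkn1c* and *Dlk1*, and no other tool was run. With sex as a block 2 of 10 rose there, *Grb10* and *Dlk1* (2.83% of all windows). The median difference over the 10 starts was 3.61 points, and over all gene starts 0.668 points. Between tissues, 8 of the 10 windows differed between E14.5 liver and the embryo (79.6% of all windows), of which 7 were lower in the liver (65.1%) and *Grb10* was higher. From E14.5 to E18.5 liver *Igf2* and *Cdkn1c* rose (23.2%) and *Grb10* fell (4.81%).

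*Grb10* encodes an adaptor protein that dampens insulin and IGF receptor signalling, and in most fetal tissues it is expressed from the maternal allele. Its start window read 9.10 and 11.1% in wild-type embryos and 19.5 and 21.9% in mutants. In E14.5 liver it read 16.5 and 16.4% against 29.1 and 27.2%, and in E18.5 liver 10.8 and 12.7% against 24.7 and 21.6%. The mutants were above the wild types in every tissue. The difference was 10.6 points in embryos (adjusted p = 0.00457), 11.7 in E14.5 liver (adjusted p = 0.122) and 11.4 in E18.5 liver (adjusted p = 0.00500), and 11.2 over the 3 tissues (adjusted p = 2.54e-05). The E14.5 difference passed with sex, which there is also the replicate number, as a block (adjusted p = 8.10e-07) and in the fit over all 12 libraries (adjusted p = 0.0473). The embryo call was lost without wild-type replicate 1 (adjusted p = 0.123), and the E18.5 call without wild-type replicate 1 (0.422) or 2 (0.0842), while without mutant replicate 1, the library that stood apart, it held at 0.0379.

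The tile over the *Grb10* start, chr11:11938001-11939000, holds 143 exonic bases. It read 20.3 and 23.3% in wild-type embryos against 40.2 and 43.1% in mutants, 27.1 and 29.8% against 41.7 and 45.6% in E14.5 liver, and 20.5 and 25.6% against 47.8 and 41.8% in E18.5 liver. The differences of 19.9, 15.2 and 21.7 points each passed on their own (adjusted p = 0.000290, 0.00154 and 0.000266). The next tile inward, a CpG-rich stretch of 125 CpGs, was almost unmethylated but also rose in all 3 tissues. It went from 0.584 and 0.695% to 2.45 and 3.11% in embryos, from 2.44 and 1.26% to 5.21 and 5.24% in E14.5 liver, and from 1.58 and 1.23% to 5.02 and 4.03% in E18.5 liver.

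Further into *Grb10* the next 3 tiles, the only ones called of 51 tested in the rest of the gene, rose as well over the tissues together. The one at chr11:11935001-11936000, all intronic, read 7.33 and 7.88% in wild-type embryos and 28.4 and 23.7% in mutants, 25.1 and 22.5% against 36.3 and 37.7% in E14.5 liver, and 24.0 and 23.4% against 37.9 and 37.8% in E18.5 liver. By contrast, the window around another *Grb10* start, 11951 bp inside the gene, lay mostly in the intermediate range, at 31.7 to 54.2%, and its difference of 4.84 points did not pass (adjusted p = 0.282).

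*Cdkn1c* rose at its start and upstream. Its start window read 29.6 and 27.3% in wild-type embryos and 44.0 and 37.3% in mutants, 22.6 and 21.7% against 30.5 and 26.4% in E14.5 liver, and 28.8 and 27.0% against 33.7 and 34.7% in E18.5 liver. The genotypes did not overlap, and the difference was 8.25 points over the tissues together (adjusted p = 0.0110), a call lost without replicate 1 of each group (adjusted p = 0.116). The tile at chr7:150645001-150646000, with 113 CpGs inside the gene, rose in each tissue on its own. It read 21.0 and 23.8% against 35.02 and 37.3% in embryos, 14.99 and 15.2% against 23.5 and 25.4% in E14.5 liver, and 19.1 and 19.2% against 33.9 and 35.5% in E18.5 liver (adjusted p = 0.0370, 0.0267 and 0.00597).

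An intergenic tile upstream of *Cdkn1c*, chr7:150650001-150651000, read 10.6 and 10.8% in wild-type embryos and 23.2 and 24.7% in mutants. In E14.5 liver it read 9.19 and 7.20% against 17.8 and 14.9%, and in E18.5 liver 13.9 and 15.6% against 26.7 and 22.2%. The mutants were again higher without overlap, by 10.4 points over the tissues together (adjusted p = 1.84e-08), with E10.5 and E14.5 passing separately (adjusted p = 0.000303 and 0.000868) and E18.5 not (0.238). The adjoining intergenic tile further upstream rose by 8.77 points (adjusted p = 0.000424), from 25.1 and 23.7% to 36.6 and 34.8% in embryos.

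The *Dlk1* start window rose by 1.63 points over the tissues together (adjusted p = 0.00390), from 2.48 and 2.77% to 4.77 and 4.19% in embryos, from 2.23 and 2.56% to 4.77 and 4.95% in E14.5 liver, and from 2.37 and 3.10% to 3.51 and 3.11% in E18.5 liver. Without replicate 1 of each group this call was lost (adjusted p = 0.291). Of the 11 tested tiles at *Dlk1*, 7 rose over the tissues together, of which 5 are intergenic, upstream of the start, and rose by 6.27 to 9.80 points. The furthest, chr12:110684001-110685000, read 2.73 and 4.83% in wild-type embryos and 7.36 and 14.9% in mutants, 10.4 and 13.1% against 19.4 and 14.9% in E14.5 liver, and 12.1 and 15.1% against 21.2 and 18.2% in E18.5 liver. A larger difference lay further inside the gene, in the fully exonic tile chr12:110698001-110699000. There the embryos read 35.8 and 56.0% in the wild type and 72.5 and 72.0% in the mutant, the E14.5 livers 39.0 and 44.2% against 51.0 and 59.4%, and the E18.5 livers 55.9 and 53.5% against 64.9 and 65.9%. The wild-type embryos differed from each other by more than the E18.5 genotypes did.

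*Meg3* rose inside the gene and in 1 tile far upstream, chr12:110769001-110770000, by 8.78 points (adjusted p = 0.0389). Inside the gene, the tile chr12:110784001-110785000, which holds 752 exonic bases, read 58.1 and 58.9% in wild-type embryos and 80.5 and 82.3% in mutants, 61.2 and 59.2% against 70.9 and 68.1% in E14.5 liver, and 62.5 and 56.6% against 72.5 and 73.6% in E18.5 liver. The difference was 15.2 points over the tissues (adjusted p = 1.83e-08), and in embryos alone 22.9 points (adjusted p = 2.62e-06).

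*Igf2* rose at a tile just inside its annotated start, chr7:149851001-149852000, and in the body of the gene. In the first, the wild-type embryos read 47.0 and 43.6% and the mutants 75.3 and 66.5%, the E14.5 livers 34.4 and 42.4% against 52.0 and 48.4%, and the E18.5 livers 50.5 and 46.0% against 63.2 and 56.3%. The body tile chr7:149840001-149841000, which also holds the microRNA gene *Mir483*, read 32.4 and 30.2% against 51.0 and 53.0% in embryos, 30.4 and 35.6% against 42.3 and 53.7% in E14.5 liver, and 39.4 and 34.4% against 46.3 and 45.0% in E18.5 liver. Genotypes did not overlap in either tile, and the differences over the tissues were 16.3 points (adjusted p = 6.10e-05) and 14.8 points (adjusted p = 4.59e-05).

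Tiles were also called upstream of *Peg10* and *Mest*. At *Peg10* 4 tiles inside *Sgce*, upstream of the 3 intermediate ones, rose by 10.4 to 14.6 points. At the furthest, chr6:4687001-4688000, the wild-type embryos read 33.5 and 40.2% and the mutants 60.5 and 62.6%, the E14.5 livers 49.5 and 57.3% against 64.1 and 58.0%, and the E18.5 livers 63.6 and 58.8% against 75.2 and 69.9%. At *Mest* 2 of the 10 tiles tested up to its start rose, from wild-type means over 65%, and 3 of 19 rose further inside the gene. *H19* and *Peg3* had no tile called there or inside the gene, and *Plagl1* had 1, of 24 inside the gene, which rose by 7.34 points.

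**Figure D3:**
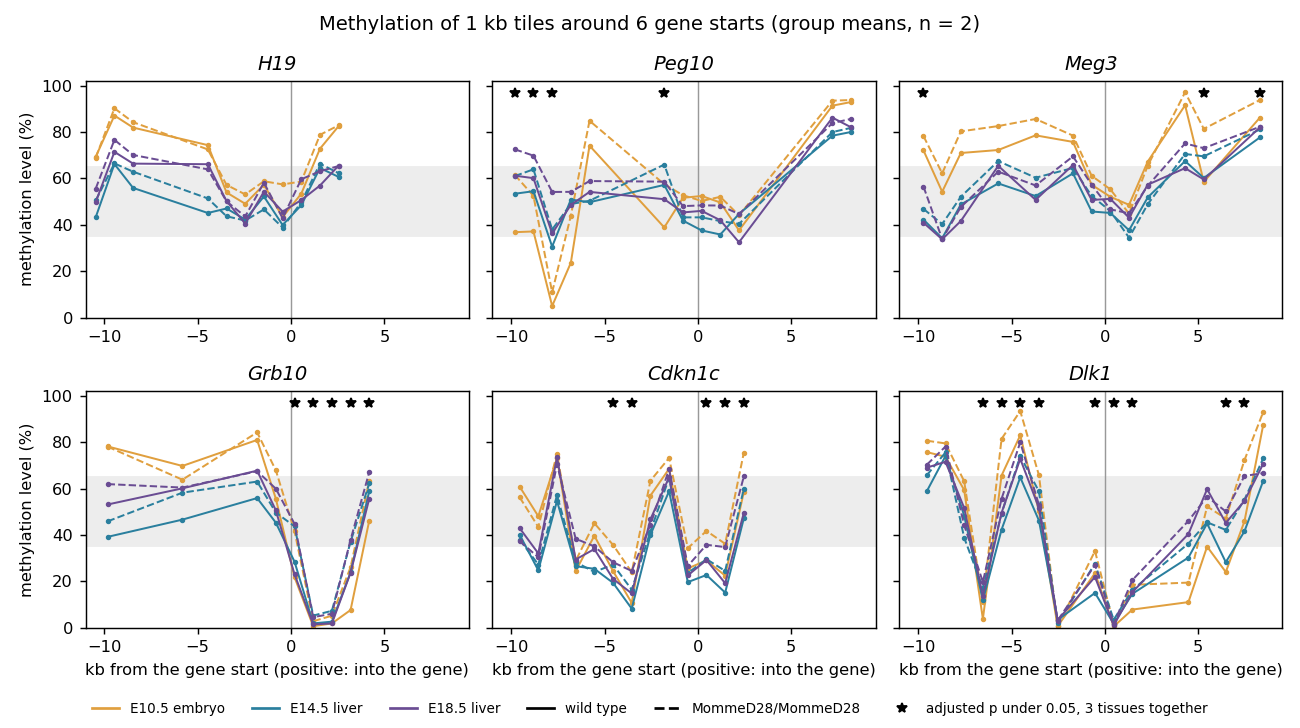
Methylation level (%, vertical axis) of 1 kb tiles against distance from the gene start (kb, positive into the gene) at 6 of the genes, as means of 2 libraries, solid lines for wild type and dashed for MommeD28/MommeD28, coloured by tissue. The grey band runs from 35 to 65%, stars mark tiles that passed over the 3 tissues together, lines join the tiles tested, and no star stands on a tile of H19.

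Across all 90 tiles, 11 rose in embryos (0.383% of all tiles rose), 6 in E14.5 liver (0.316%) and 3 in E18.5 liver (0.112%), and over the tissues together 22 (24.4%) rose, where 1.97% of all tiles did. None fell. The mutants were higher in 78 of the 90. Median differences were 4.52, 3.86 and 3.97 points in the 3 tissues, against 1.08, 1.85 and 2.12 for all tiles. The 90 tiles held a median of 11.5 covered CpGs, against 8 for all tiles, and these shares were not matched for CpG number. Further inside the genes, 21 of 164 tiles rose over the tissues together and none fell. Neighbouring tiles share sequenced fragments and are not independent. Without replicate 1 of each group, 4 of the 22 calls held, the *Grb10* tiles at 185 and 1185 bp and the *Cdkn1c* tiles at 1454 and -3546 bp, and without replicate 2 there were 19 calls. In embryos the 11 became 6 without wild-type replicate 1, 7 without mutant replicate 1 and 5 without mutant replicate 2. In E14.5 liver the 6 became 3, 2 and 2 without the same libraries, and in E18.5 liver the 3 became 1 without wild-type replicate 1, 0 without wild-type replicate 2 and 5 without mutant replicate 2.

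Calls were set against the wild-type level. Of tiles with a wild-type mean under 35%, 11 of 16 were called (68.8%, against 8.28% of all tiles at that level), of those at 35 to 65% 8 of 43 (18.6% against 4.77%), and of those over 65% 3 of 31 (9.68% against 0.935%). The share thus fell with level over the whole genome as well, and no test was made of this split. The wild-type mean that made the split also enters the difference, and small rises could be called at low levels. The *Dlk1* tile at 468 bp was called at 1.06 points from 1.07%. The *Mest* tile at -46 bp was not called at 7.82 points from 66.6%. The split therefore does not compare sizes of change. Called tiles had wild-type means of 1.07 to 73.5% and rose by 1.06 to 18.9 points.

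**Figure D4:**
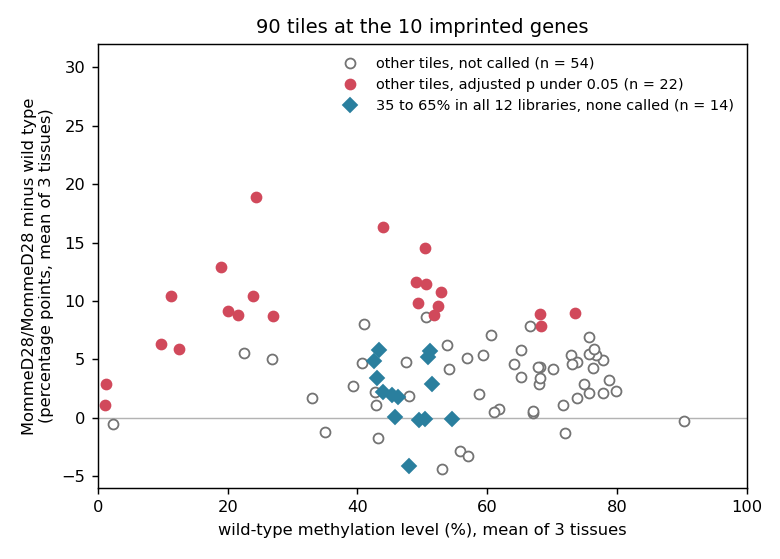
Difference in methylation between MommeD28/MommeD28 and wild type (percentage points, vertical axis) against the wild-type level (%, horizontal axis), both as means of the 3 tissues, for the 90 tiles at the 10 genes. Diamonds are the 14 tiles at 35 to 65% in all 12 libraries, none of which was called, and filled circles are the 22 called tiles, all above 0.

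Whether the genotype difference itself differed between tissues was tested by an interaction term. None of 41 start windows and none of 254 tiles at these genes passed, gene bodies included, while 11 of all tiles (0.0011%) and 0 of all windows (0%) did. At an unadjusted p under 0.05 there were 5 of the 41 windows and 28 of the 254 tiles, where 3.53% of all windows and 3.87% of all tiles had one, and no other tool was run. Calls made in 1 tissue and not in another were thus not shown to differ.

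In E14.5 liver RNA the 10 genes covered a wide range. Per kilobase of exon, *H19* stood first at 4846 CPM per kb (range 4579 to 5181 over the 6 livers), followed by *Igf2* at 934.9, *Dlk1* at 406, *Cdkn1c* at 172.8, *Grb10* at 111.6 and *Mest* at 75.8. *Peg10* (38.1), *Plagl1* (34.0) and *Peg3* (33.8) overlapped in their ranges, and *Meg3* came last at 7.89. *H19* alone took 1.06 to 1.22% of the counts. Counting was not stranded, so *Igf2* cannot be separated from *Igf2as*, *Mest* from *Copg2* or *Meg3* from *Gm17639* where these overlap.

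None of the 10 passed the test of the genotypes, in which 197 of 14183 genes did (1.39%, 0.698% higher and 0.691% lower), or 460 with replicate number as a block. At an unadjusted p under 0.05 there were 3 (30%, against 14.6% of all genes), *Peg3*, *Grb10* and *Plagl1*, each higher in the mutant. DESeq2 called *Peg3* and *Grb10*, among 257 genes in all (146 higher and 111 lower). The median log2 fold change of the 10 was 0.10, with 8 positive, and that of all genes was -0.0017. In 3 of the 10, *Peg3*, *Grb10* and *Dlk1*, the genotypes did not overlap, against 20.1% of all genes. In whole livers, fewer cells of a type and less RNA per cell cannot be told apart.

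*Peg3* read 369.3, 395.3 and 420.2 CPM in the wild-type livers and 560.0, 473.3 and 482.5 CPM in the mutants. Means were 394.9 ± 25.4 (SD, n = 3) and 505.2 ± 47.6 CPM (SD, n = 3). Every mutant lay above every wild type, with a log2 fold change of 0.35 (SE 0.080, edgeR adjusted p = 0.0542). With replicate number as a block the adjusted p was 0.0171, and in DESeq2 0.00145, so the call depends on the model.

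*Grb10* read 869.9, 960.9 and 993.7 CPM in the wild-type livers and 1120.5, 1125.8 and 1067.2 CPM in the mutants. The mutants were again all higher, with a log2 fold change of 0.23 (SE 0.068, edgeR adjusted p = 0.140, DESeq2 adjusted p = 0.0467). *Dlk1* read 2161.9, 2273.6 and 2183.0 CPM against 2365.4, 2504.0 and 2292.7 CPM, a log2 fold change of 0.11 (SE 0.061, edgeR adjusted p = 0.437). *Plagl1* read 218.3, 227.9 and 245.7 CPM against 269.0, 243.6 and 280.5 CPM, with 1 mutant inside the wild-type range (log2 fold change 0.19, edgeR adjusted p = 0.256).

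The growth factor *Igf2* and its neighbour *H19* were close between genotypes. *Igf2* read 4924.5, 5263.3 and 5131.6 CPM in the wild type and 5055.9, 5301.0 and 5135.9 CPM in the mutant, and *H19* 10861.9, 11733.9 and 11189.1 CPM against 11371.4, 12289.8 and 11518.5 CPM. Both groups overlapped, with log2 fold changes of 0.01 (SE 0.059) and 0.06 (SE 0.061). *Cdkn1c* read 342.7, 340.4 and 323.0 CPM against 320.0, 353.4 and 322.6 CPM, a log2 fold change of -0.02 (SE 0.066, edgeR adjusted p = 0.936).

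*Meg3* varied most between livers of a genotype, at 134.3, 147.8 and 106.1 CPM against 224.5, 103.9 and 139.9 CPM (log2 fold change 0.27, SE 0.211, or -0.08 without mutant replicate 1). *Mest* read 267.5, 292.1 and 304.4 CPM against 279.3, 315.8 and 331.0 CPM, and *Peg10* 229.4, 272.1 and 279.0 CPM against 254.0, 239.2 and 247.7 CPM. In these 3 genes the groups overlapped. Between livers of the same replicate number, *Plagl1*, *Mest*, *H19* and *Igf2* were higher in the mutant in 3 of 3 pairs. None passed with that number as a block (edgeR adjusted p = 0.105, 0.419, 0.771 and 0.951). The share of all genes higher in 3 of 3 pairs was not counted.

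**Figure D5:**
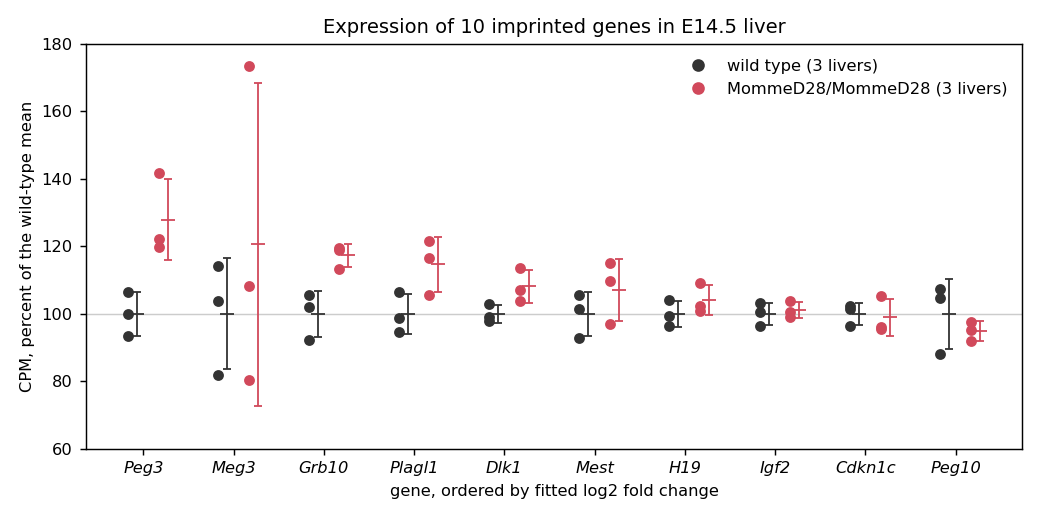
Expression of the 10 genes in E14.5 liver as CPM in percent of the wild-type mean (vertical axis), 1 point per liver, with the mean and SD of 3 livers beside the points, black for wild type and red for MommeD28/MommeD28. In Peg3, Grb10 and Dlk1 all 3 mutants lie above all 3 wild types, and the Meg3 mutants spread most.

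Marker sums of the cell types of fetal liver overlapped between the genotypes in 2 of 4 lists. Summed erythroid markers ran from 9679 to 13300 CPM in the wild type and from 9815 to 11550 CPM in the mutant, and mesenchymal markers from 825.9 to 1068 CPM and from 901.3 to 1323 CPM. Hepatoblast markers ran from 53290 to 63750 CPM and from 65690 to 76750 CPM, and endothelial markers from 268.2 to 293.8 CPM and from 297.6 to 345.2 CPM, both sums higher in every mutant liver. Taken singly, 1 of 8 hepatoblast markers (12.5%) and 3 of 6 endothelial markers (50%) did not overlap between the genotypes, against 20.1% of all genes. No marker of the 4 lists was called (0 of 30 genes), 10 had an unadjusted p under 0.05 (14.6% of all genes tested had one), and the part of these differences in the values of the 10 genes was not tested.

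In the wider lists 2 genes were called, both higher, where 0.698% of all genes were. Of other imprinted genes, none of 14 paternally expressed genes tested was called, with *Slc38a4*, an amino acid transporter gene, at 227.9 and 248.2 CPM and *Inpp5f*, a phosphatase gene, at 38.8 and 41.7 CPM (means of wild type and mutant). The log2 fold change was positive in 12 of the 14, and in 7011 of all 14183 genes. An unadjusted edgeR p under 0.05 was found for 3 (21.4%, against 14.6% of all genes), *Nnat*, *Sfmbt2* and *Airn*, each higher and named after their values were seen. In 5 the genotypes did not overlap (35.7%, against 20.1% of all genes). Of 19 maternally expressed genes 1 rose (5.26%), *Zim1*, a zinc finger gene next to *Peg3*. It read 19.4, 20.7 and 24.0 CPM in the wild type and 33.5, 30.5 and 28.8 CPM in the mutant, with no overlap (log2 fold change 0.53, SE 0.097, edgeR adjusted p = 0.0226). Of the 19, 13 had a positive log2 fold change and 3 (15.8%) an unadjusted edgeR p under 0.05. In 3 (15.8%) the genotypes did not overlap. Among them *Slc22a18* was lower in the mutant (log2 fold change -0.45, edgeR adjusted p = 0.101).

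Of 10 genes that maintain imprints none was called, with *Trim28*, the corepressor partner of ZFP57, at a log2 fold change of 0.00 and *Dnmt1*, the maintenance methyltransferase, at -0.02. In that list 3 of 10 had an unadjusted p under 0.05 (14.6% of all genes had one) and did not overlap (20.1% of all genes), named here after their values were seen. *Zfp57* read 4.20, 3.23 and 4.05 CPM in the wild type and 5.69, 5.27 and 6.08 CPM in the mutant (log2 fold change 0.57, SE 0.164, edgeR adjusted p = 0.125). *Uhrf1*, which brings the methyltransferase to newly copied DNA, had a log2 fold change of -0.17 (edgeR adjusted p = 0.290) and *Arid4a* one of 0.19 (edgeR adjusted p = 0.232). Of 13 genes of the IGF pathway 1 rose (7.69%), *Igfbp1*, a secreted IGF-binding protein made by hepatocytes. It read 91.2, 151.0 and 133.9 CPM in the wild type and 414.4, 660.1 and 204.3 CPM in the mutant (log2 fold change 1.76, SE 0.316, edgeR adjusted p = 0.0185). The genes most like *H19* in pattern over the 6 livers, by Pearson's r of log2 CPM among 9726 genes, were *Eif4ebp1* (r = 0.991), *Bex1* (0.989), *Mgrn1* (0.984), *Ube2q1* (0.984) and *Mospd2* (0.983). These values share libraries and depth and are a description over 6 samples.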

How the data were processed

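DNA methylation was measured by whole genome bisulphite sequencing in 12 libraries and RNA by sequencing of 6 E14.5 livers. The deposited bisulphite values are counts of unconverted and converted reads per CpG. The authors had aligned the reads in Bismark, with Bowtie2, to mm9 carrying FVB/NJ substitutions, dropped PCR duplicates and combined both strands of each CpG. The deposited percent per CpG is the authors' rounded value and was not used. For RNA-seq the authors deposited raw read counts, listed by Ensembl identifier, from htseq-count run without strand on TopHat alignments. H3K4me1 ChIP-seq was not analysed here.

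Methylation is the percent of unconverted reads over CpGs that each of the 12 libraries covered with 6 or more reads, in windows of 1 kb to either side of a GENCODE vM1 start or in tiles of a 1 kb grid, each with at least 5 such CpGs. Cytosines that escaped conversion in lambda DNA came to 0.0412 to 0.0775%, which counts as methylation. edgeR 4.0.16 in R 4.3.3 compared methylated with unmethylated counts by its quasi-likelihood test, with 1 intercept per library. Fits were made within each tissue and over all 12 libraries, and p-values were adjusted by Benjamini-Hochberg over all 51316 windows or 1001234 tiles. A window or tile was called at an adjusted p under 0.05. The joint fit also gave the differences between tissues and the interaction of genotype and tissue. RNA counts were tested in edgeR with TMM normalization and its default filter, over 14183 genes, with DESeq2 1.42.0 as the other tool. The scripts were tested on simulated data. Figures were drawn with matplotlib 3.10.9.

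The 10 genes and all lists were chosen with earlier results of these data known. All 10 are named in every comparison. From the lists of other imprinted genes, genes that maintain imprints and genes of the IGF pathway, those called are named, and otherwise the 2 with the highest mean CPM. *Kcnq1ot1* and *Peg13* were not matched by symbol. Of 37991 gene identifiers 37205 had a symbol. In RNA-seq, deviations from the group mean were correlated between the livers of a replicate number (r = 0.155, 0.220 and 0.427 over 14183 genes). Between livers of different replicate numbers r ran from -0.274 to 0.0776. That check of the data, not a statement in the labels, is the source of the pairing. Replicate 3 was female in both genotypes, and the part of sex in these correlations was not tested. Replicate libraries of each group differed by more than sampling noise. Depth counts and read shares cover counting error only.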

Additional observations from a re-analysis of the deposited data

How the results depend on the processing

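Of 1499 differences recomputed for single genes, windows and tiles, 81 changed sign, none of them called in either fit. The 197 genes called in liver became 532 without a filter on low counts, 460 with the replicate block, and 66 to 224 when each library was left out in turn. The 99 higher and 98 lower genes became 35 and 59 without wild-type replicate 1, 317 and 215 without the filter. Of the 10 genes only *Peg3* and *Grb10* crossed the threshold, *Peg3* with the replicate block, without the filter (adjusted p = 0.00244) and in DESeq2, and *Grb10* without the filter (0.0443) and in DESeq2. Leaving out single livers gave an adjusted p of 0.0682 to 0.208 for *Peg3*. For start windows, the calls were 547 in embryos, 18 in E14.5 liver and 204 in E18.5 liver. A minimum difference of 15 points left 186, 8 and 98, the fit over all 12 libraries gave 103 in E14.5 and 135 in E18.5 liver, windows of 500 bp to either side gave 315 in embryos and 0 in E14.5 liver, and CpGs with at least 10 reads gave 11 in E14.5 liver. Leaving out single libraries gave 112 to 586, 0 to 25 and 66 to 512, and over the tissues together 586 to 2588 around 1989. For tiles, the 3918, 3330 and 1172 calls became 1297 to 5048, 1805 to 8887 and 177 to 10887, and the 20132 over the tissues together 2693 to 16557. Tiles above 15 points numbered 2257 in embryos and 1219 in E14.5 liver, and the joint fit called 1370 in E14.5 liver. At the 10 genes the 11, 6 and 3 called tiles became 5 to 11, 2 to 8 and 0 to 5, and the 22 over the tissues together 4 to 19. Above 15 points 5 remained in embryos and 1 in E14.5 liver, where the joint fit called 3. Between E14.5 and E18.5 liver, a fit of the wild-type libraries alone, with fewer libraries, called 238 windows and 78514 tiles, beside 14380 and 376749 in the fit of all libraries. The cause of the other shifts was not tested.

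The bisulphite numbers go with sex in E14.5 liver and are only a number in the other tissues, with correlations of 0.0520, 0.281 and -0.0357 in E10.5, E14.5 and E18.5 samples. A replicate block gave 1575 start windows in embryos, 1517 in E14.5 liver and 3564 over the tissues together, and 7592 tiles in embryos. In E14.5 liver the *Grb10* and *Dlk1* start windows then passed (adjusted p = 8.10e-07 and 4.96e-05), as did *Cdkn1c* in embryos (0.00601) and *Igf2* over the tissues together (0.0373). The count of 14 intermediate tiles rests on its limits. It was 1 at 40 to 60% and 23 at 30 to 70%. At a median of 8 covered CpGs per tile over the genome and 17 to 35 reads per CpG, single tiles were read with limited precision, and each tissue held 2 against 2 samples.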

Other observations

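Start windows of other imprinted genes were read in the same way. Of 90 such windows, 15 (16.7%) lay between 35 and 65% in all 12 libraries, against 1.71% of all windows. At the annotated gene starts alone, 6 of 19 paternally expressed genes (31.6%) and 1 of 24 maternally expressed genes (4.17%) did. The windows are not all separate DNA, and that of *Sgce* shares most of its bases with the *Peg10* window counted above. *Zrsr1*, a splicing factor gene inside *Commd1*, ran from 40.3 to 52.1% and *Nnat*, a membrane protein gene of the brain inside *Blcap*, from 42.2 to 53.2%, examples chosen after their values were seen. Over the tissues together 8 of the 90 rose (3.79% of all windows) and none fell. The largest call was a *Gnas* window, at a start of the gene for the stimulatory G protein, which was itself intermediate and rose by 9.14 points (adjusted p = 0.0352), from 48.1 and 44.0% to 63.7 and 50.6% in embryos, from 39.95 and 35.7% to 45.2 and 42.3% in E14.5 liver, and from 38.6 and 35.2% to 45.6 and 48.9% in E18.5 liver. None of the other 6 *Gnas* windows was called. Of these, 3 were also intermediate, with differences of 2.37 to 3.43 points.

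The other 7 were nearly unmethylated in the wild type. *Phlda2*, a maternally expressed growth-restraining gene close to *Cdkn1c*, went from 2.62 and 2.13% to 6.44 and 5.80% in embryos, from 2.39 and 2.84% to 4.79 and 6.26% in E14.5 liver, and from 2.29 and 1.59% to 7.44 and 6.21% in E18.5 liver. It passed in embryos (adjusted p = 0.00368) and E18.5 liver (adjusted p = 2.47e-05). Its RNA read 10.9, 9.22 and 9.70 CPM in wild-type livers and 7.56, 10.3 and 6.08 CPM in mutants (log2 fold change -0.32, edgeR adjusted p = 0.419). The others were *Sfmbt2*, *Atp10a*, *Kcnq1*, *Dio3*, *Kcnk9* and *Slc22a3*, with rises of 0.898 to 2.88 points.

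Beyond the upstream limit of *Meg3*, in the stretch known to hold the control region of the *Dlk1* and *Meg3* domain, 2 tiles from chr12:110766001 to chr12:110768000 lay between 35 and 65% in every library, a stretch added after seeing the data. They ranged from 37.2 to 53.5% and from 36.5 to 60.1%, and the genotypes differed by -1.13 and 1.73 points (adjusted p = 0.844 and 0.778). The first held 5 ZFP57 matches, all on the plus strand, of which a pair is shown with the motif in capitals.
Meg3 upstream match 1, chr12:110766494-110766523: gtggacagtcagTGCCGCagatcgctatgg
Meg3 upstream match 2, chr12:110766540-110766569: gccatggactagTGCCGCggacctccgtga
Of the 10 tiles tested in that stretch, 3 rose over the tissues together, where 1.97% of all tiles did, and none fell. The one next to the pair, chr12:110768001-110769000, rose by 9.03 points (adjusted p = 0.0189), chr12:110762001-110763000 by 13.5 points (adjusted p = 0.0142) and chr12:110764001-110765000 by 5.98 points (adjusted p = 0.0331).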
